A study of Mus musculus with 8 samples.

Results

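Keratins are the intermediate filament proteins of epithelial cells. A type I and a type II chain pair to build the filament, the genes sit in a type I and a type II cluster, and single keratins mark simple epithelia, the basal and upper layers of the epidermis, or hair. The main intermediate filament protein of skeletal muscle fibres is desmin, and keratins are known chiefly from epithelia.

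The genes were chosen by symbol (Krt followed by a digit) among RefSeq protein-coding genes on chromosomes 1 to 19 of the mouse build GRCm38.p6 (mm10), which gave 53 of 20665 genes. They lie in 2 clusters. The type I cluster held 27 of them on chromosome 11, from 99230761 to 100271951 with flanks, and the type II cluster held 26 on chromosome 15, from 101346315 to 102034026. Krt18, which codes for a type I chain, lies beside Krt8 at the end of the type II cluster and is counted there. The peaks were selected on their overlap with a gene body plus 2 kb on both sides in these same libraries, so counts of peaks and regions are a description with no test.

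The deposited data are broad peak lists from ATAC-seq, which marks DNA that a transposase can reach, in satellite cells, the stem cells of skeletal muscle, from hindlimb of C57BL/6 mice. There were 4 groups of 2 libraries: cells used directly after isolation (QSC), cells taken 2.5 days post-injury (ASC), and cells cultured in F10 medium with HS for differentiation, either with a control siRNA or with an siRNA against the long noncoding RNA LncMyod for 48 h. No group carries a transgene or a deletion by its labels, and the labels do not say whether the 2 libraries of a group came from separate mice or cultures, so the spread behind every p-value is that between these libraries and may be technical. The 8 lists held 59666 to 95449 peaks covering 42.4 to 64.0 Mb, with LncMyod siRNA replicate 1 the longest and ASC replicate 2 the shortest; read depth is unknown because the files hold no counts. Of 12 satellite cell markers, Pax7, Myod1 and Des among them, all 12 had peaks in every library. Of 27 epithelial and keratinocyte markers, 23 to 25 had a peak in each library with summed scaled lengths of 40.6 to 47.2 kb in QSC, 47.1 to 47.7 kb in ASC and 37.3 to 42.7 kb in culture, and the cornified envelope genes Ivl and Flg had none in any. The part of other cell types in the results below was not tested.

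Peaks at keratin genes were fewest in QSC. QSC replicates held 22 and 19 such peaks, ASC 39 and 33, control siRNA 38 and 43, and LncMyod siRNA 57 and 47. Both QSC libraries lay below the other 6, and both LncMyod siRNA libraries lay above all others. The lists differ in length; per 10000 peaks of a library the numbers were 3.16 and 2.92 in QSC, 5.54 and 5.53 in ASC, 4.59 and 5.29 in control siRNA, and 5.97 and 5.92 in LncMyod siRNA. When each list was shortened to its 59666 strongest peaks, the numbers became 14 and 17, 30 and 33, 24 and 22, and 23 and 30 in the same order of groups. QSC was then still lowest, and the LncMyod siRNA libraries no longer lay above ASC.

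**Figure D1:**
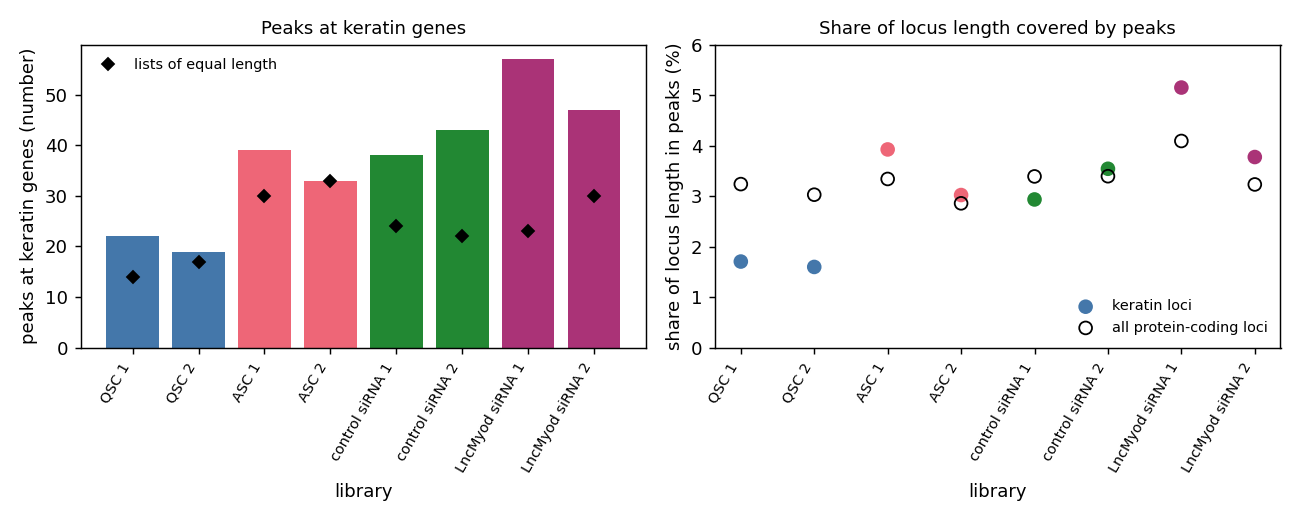
Left, number of peaks at keratin genes in each of the 8 libraries (bars) and the number after shortening every list to 59666 peaks (diamonds). Right, percent of the keratin loci (filled) and of all protein-coding loci (open) covered by peaks; the 2 QSC libraries lie at 1.71% and 1.60% of keratin loci, below 3.24% and 3.03% of coding loci.

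Measured as length, peaks covered 1.71% and 1.60% of the keratin loci in QSC against 3.24% and 3.03% of all protein-coding loci. The keratin share was 3.93% and 3.02% in ASC, 2.94% and 3.54% in control siRNA, and 5.15% and 3.77% in LncMyod siRNA. Over all protein-coding loci the corresponding values were 3.34% and 2.86%, 3.39% and 3.40%, and 4.09% and 3.23%. Keratin loci were thus covered less than coding loci in general in both QSC libraries and in control siRNA replicate 1, and more in the other 5. To set libraries on 1 scale, covered lengths were multiplied by the mean total covered length of the 8 libraries over that of the library, which is called scaled covered length from here on. Scaled covered length at keratin loci had a mean of 11.2 ± 0.073 kb over the QSC libraries and of 24.5 ± 1.24 kb over the ASC libraries (SD, n = 2). The means of the cultures were 20.5 ± 2.74 kb for control siRNA and 25.9 ± 1.06 kb for LncMyod siRNA (SD, n = 2).

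The keratin peaks were weak calls. Their median −log10 q, as deposited, ran from 2.73 to 6.08 over the libraries, against 5.04 to 8.83 for all peaks, and was lower than the library's own median in all 8. Of the keratin peaks, 45.5% and 47.4% in QSC and 36.8% and 31.9% in LncMyod siRNA reached a −log10 q of 5, against 61.9%, 58.1%, 58.9% and 50.3% of all peaks. With that minimum the numbers of keratin peaks were 10 and 9 in QSC, 17 and 13 in ASC, 23 and 18 in control siRNA, and 21 and 15 in LncMyod siRNA. QSC stayed lowest, and control siRNA then held the most in number. The lists with that minimum differ in length as well. They held 43069 and 37759 peaks in QSC, 41163 and 31437 in ASC, 57881 and 54317 in control siRNA, and 56239 and 39930 in LncMyod siRNA. The numbers at keratin genes are not corrected for this, so the place of control siRNA carries no weight.

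Gene by gene, 15 and 12 of the 53 keratin genes had a peak in QSC, 25 and 22 in ASC, 24 and 27 in control siRNA, and 36 and 30 in LncMyod siRNA. In every library 73.7% to 79.2% of protein-coding genes had one. No peak in any library was found at 10 keratin genes (18.9%, against 18.1% of all coding genes), whereas 9 (17.0%) had peaks in all 8 libraries against 70.8% of coding genes. Most keratin genes were therefore covered in some libraries and not in others. In the type I cluster 3 and 2 of 27 genes had a peak in QSC and 7 to 15 in the other libraries; in the type II cluster 12 and 10 of 26 had one in QSC and 13 to 21 elsewhere. In neither QSC library but in at least 1 other library, 26 keratin genes were covered, 17 of them in the type I cluster. The share of all coding genes that met this rule was not counted. Both the 18.1% of coding genes with no peak and the 70.8% with peaks in all 8 libraries fall outside it.

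**Figure D2:**
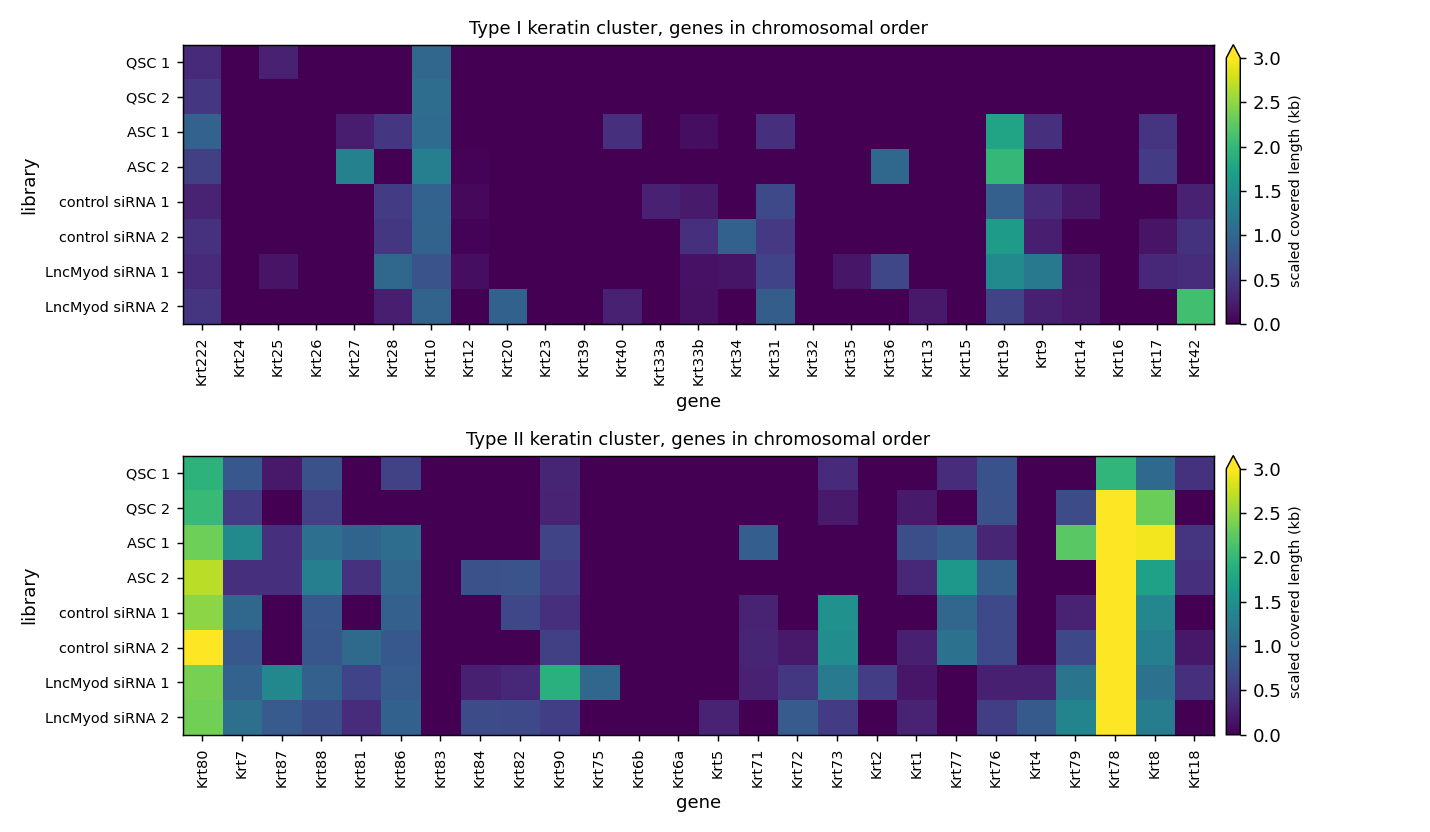
Scaled covered length (kb, colour, capped at 3 kb) of the 27 genes of the type I cluster and the 26 of the type II cluster (columns) in the 8 libraries (rows). In QSC, 3 and 2 genes of the type I cluster have a peak; Krt80, Krt78, Krt8 and Krt10 are covered in all 8 libraries.

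The start sites of keratin genes were mostly outside peaks. RefSeq promoters of GRCm38.p6 matched 36 of the 53 genes, and 1 or 2 of the 36 starts lay in a peak in each library apart from LncMyod siRNA replicate 1, which had 5. For the 16457 coding genes with an entry, 61.0% to 63.8% of starts lay in a peak. Krt9, of palm and sole epidermis, had its start in a peak in 5 libraries, none of them QSC. Krt76, of oral epithelium, had it in both QSC and both LncMyod siRNA libraries. Krt18, of simple epithelia, had it in both ASC libraries, control siRNA replicate 2 and LncMyod siRNA replicate 1.

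The promoters below belong to 4 keratin genes whose covered length changed in a comparison and, chosen after their values were seen, to Krt76 and Krt18, whose starts lay in a peak in 4 libraries each. Each is the 250 bases before the start from RefSeq, 5′ to 3′ on the gene's strand, with capitals marking TATAAA, the TATA box motif, on either strand.
Krt73, chr15:101802361-101802610, minus strand: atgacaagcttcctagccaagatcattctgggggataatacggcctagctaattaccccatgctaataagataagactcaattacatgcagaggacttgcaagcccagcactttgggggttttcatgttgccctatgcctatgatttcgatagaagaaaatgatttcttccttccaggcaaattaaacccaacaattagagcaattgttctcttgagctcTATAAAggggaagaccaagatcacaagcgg
Krt72, chr15:101786521-101786770, minus strand: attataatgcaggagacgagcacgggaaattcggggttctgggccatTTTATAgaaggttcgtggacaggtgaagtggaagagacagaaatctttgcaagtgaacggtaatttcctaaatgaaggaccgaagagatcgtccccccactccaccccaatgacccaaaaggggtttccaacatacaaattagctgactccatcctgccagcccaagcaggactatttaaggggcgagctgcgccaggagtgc
Krt31, chr11:100050552-100050801, minus strand: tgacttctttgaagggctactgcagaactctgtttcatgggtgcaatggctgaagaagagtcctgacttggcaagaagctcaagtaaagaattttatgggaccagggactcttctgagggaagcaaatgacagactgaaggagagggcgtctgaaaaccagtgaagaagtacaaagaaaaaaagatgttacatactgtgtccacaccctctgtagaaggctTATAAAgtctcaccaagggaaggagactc
Krt77, chr15:101869706-101869955, minus strand: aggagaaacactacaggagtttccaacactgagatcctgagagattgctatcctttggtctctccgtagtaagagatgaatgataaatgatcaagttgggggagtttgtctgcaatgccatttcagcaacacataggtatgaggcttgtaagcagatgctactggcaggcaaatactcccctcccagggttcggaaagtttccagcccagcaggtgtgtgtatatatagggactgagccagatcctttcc
Krt76, chr15:101892921-101893170, minus strand: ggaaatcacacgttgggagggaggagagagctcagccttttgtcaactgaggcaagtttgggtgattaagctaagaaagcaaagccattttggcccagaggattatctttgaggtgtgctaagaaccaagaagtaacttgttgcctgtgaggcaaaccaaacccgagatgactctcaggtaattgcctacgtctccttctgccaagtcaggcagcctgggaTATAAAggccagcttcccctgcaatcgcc
Krt18, chr15:102027966-102028215, plus strand: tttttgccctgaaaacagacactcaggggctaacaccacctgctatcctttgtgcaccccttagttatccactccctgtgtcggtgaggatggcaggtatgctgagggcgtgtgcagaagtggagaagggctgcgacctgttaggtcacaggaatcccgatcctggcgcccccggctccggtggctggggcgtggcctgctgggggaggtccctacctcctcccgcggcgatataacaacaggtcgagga

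In Krt73 the TATAAA begins 30 bases before the start, and in Krt31 and Krt76 it begins 29 before it. Krt72 holds it on the other strand, far from the start, and Krt77 and Krt18 hold no exact match. Over windows of 250 bases before to 50 after the start, 17 of 37 keratin promoters (45.9%) held TATAAA on either strand, against 11.7% of 20085 promoters in the table. GGGCGG, the GC box, was in 2 of 37 (5.41%) against 43.4% of all. The other motifs searched on both strands were CAGCTG (an E-box; 8.11% against 12.2%), TGACTCA (the AP-1 site; 2.70% against 4.09%), CATTCC (the Tead motif; 8.11% against 11.5%) and TGTGGT (the Runx motif; 5.41% against 12.2%). A match is a run of letters and not a shown site. The promoter of Krt77 and that of Krt31 overlapped no peak in any library, nor did that of Krt73, so the peaks behind their changes lay elsewhere in or near the genes.

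Peaks of the 8 libraries at keratin genes merged into 97 regions, 33 in the type I cluster and 64 in the type II cluster. Of these, 77 touched a keratin gene body, 20 lay in flanks alone, and 6 covered a keratin start. Their median width was 674 bp, against 648 bp for all 141301 merged regions. A single library held 45 of the 97 (46.4%, against 26.0% of all regions), and all 8 held 10 (10.3%, against 25.0%). LncMyod siRNA replicates 1 and 2 were the only holders of 14 and 13 of those 45, and of 24.6% and 26.5% of single-library regions over the genome. Neither QSC library held 72 of the 97 (74.2%, against 47.6% of all regions), and neither ASC library held 49 (50.5%, against 45.7%).

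The comparison of ASC with QSC asks what injury changed in cells taken from muscle. Groups were compared by limma on log2(scaled covered length + 500 bp) for all 25404 genes with at least 200 bp in at least 2 libraries, of which 35 of the 53 keratins were part; a gene that passed this filter through 1 group alone had to differ between groups, so the count of 35 carries no support. Krt19 and Krt77 rose (2 of 35), beside 6.58% of all genes, and no keratin fell, beside 4.91% of all genes. The keratins that rose made up a share near that background. The median change over the 35 was 0.44 on the log2 scale, against 0.04 over all genes tested. Genes that passed the filter through ASC alone, such as Krt27, push that median up. Without the filter on low values the median was 0.12 over the 53 keratins, against 0 over all genes. Of the 35 keratins, 11 had an unadjusted p below 0.05, beside 25.4% of all genes, which is near the keratin share.

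Krt19, a type I keratin of simple epithelia and of stem cells in hair follicles, had scaled covered lengths of 0 and 0 bp in QSC and 1746 and 2001 bp in ASC. In culture it had 924 and 1643 bp with control siRNA and 1434 and 615 bp with LncMyod siRNA. Every library other than QSC was covered, and the groups QSC and ASC did not overlap. The log2 change from QSC to ASC was 2.24 (SE 0.30, adjusted p = 0.00836), a value that depends on the added 500 bp since QSC had no peak. The coverage came from 3 regions. At chr11:100147539-100147968, beyond the high-coordinate end of the gene, all 6 libraries other than QSC held a peak, with −log10 q of 9.67 and 4.96 in ASC, 8.22 and 7.68 in control siRNA, and 9.19 and 3.20 in LncMyod siRNA. At chr11:100145224-100146582, across that end, both ASC libraries had 1359 and 1078 bp but −log10 q of only 1.58 and 1.31. Another stretch at the low-coordinate end was held by ASC replicate 2 and all 4 cultured libraries. With peaks of −log10 q of at least 5 alone the log2 change was 0.41 (adjusted p = 0.736), and with lists of equal length it was 1.46 (adjusted p = 0.0830). Without QSC replicate 1, QSC replicate 2 or ASC replicate 2 the adjusted p was 0.0672, 0.0729 and 0.0504.

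Krt77, a type II keratin of sweat gland ducts and skin, had 376 and 0 bp in QSC, 874 and 1601 bp in ASC, 988 and 1134 bp in control siRNA, and 0 and 0 bp in LncMyod siRNA. A single region inside the gene, chr15:101859432-101861164, carried all of it. The groups QSC and ASC did not overlap, and the log2 change was 1.36 (SE 0.31, adjusted p = 0.0386). That call was lost without scaling (adjusted p = 0.0621), with the replicate block (0.0671), without either QSC replicate 2 (log2 0.96, 0.166) or ASC replicate 2 (1.05, 0.159), and without any single cultured library (0.0794 to 0.0883). From control siRNA to LncMyod siRNA it was lower by a log2 change of -1.64 (SE 0.31), which missed the threshold (adjusted p = 0.136).

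**Figure D3:**
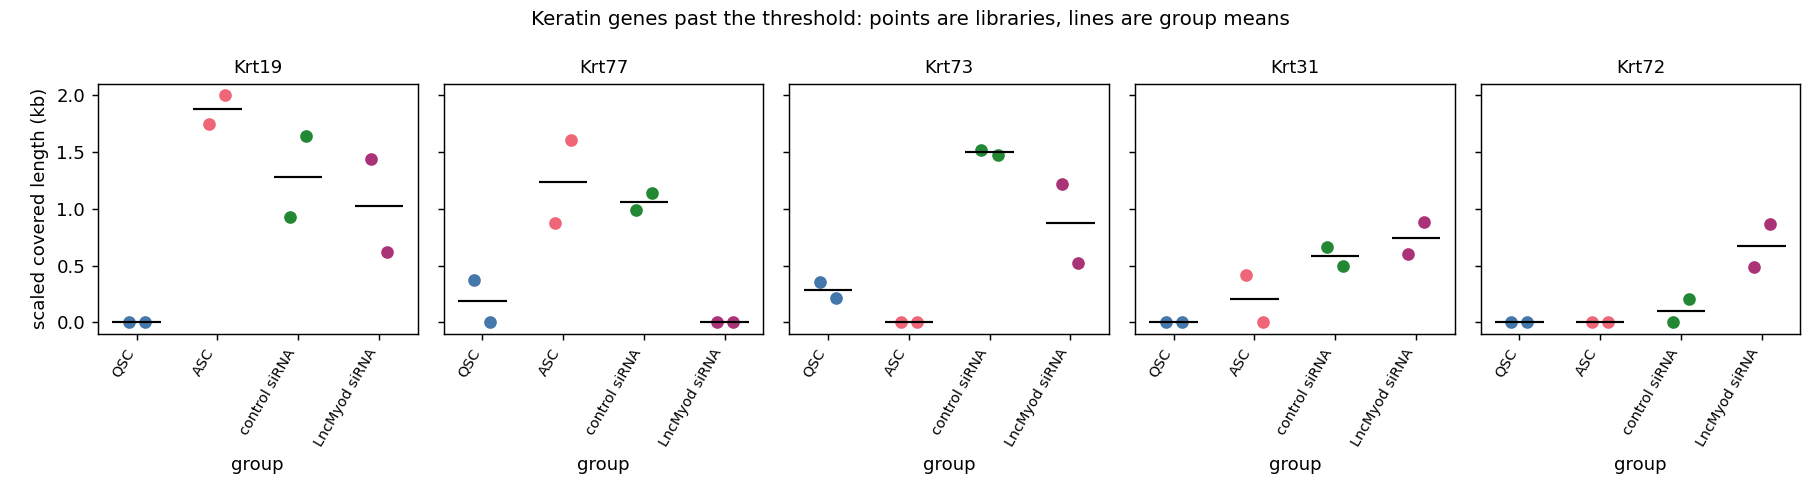
Scaled covered length (kb) of the 5 keratin genes that passed the threshold in at least 1 comparison; points are the 2 libraries of each group and lines their mean. Krt19 is at 0 in both QSC libraries and between 615 and 2001 bp in the other 6; Krt73 is at 0 in both ASC libraries; Krt77 is at 0 in both LncMyod siRNA libraries.

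Regions told the same comparison without a model. Both ASC libraries and neither QSC library held 8 of the 97 keratin regions (8.25%, beside 5.99% of all regions), and the reverse was true of 3 (3.09%, beside 8.54%). The 8, in order of deposited strength, were the flank region of Krt19, a region inside Krt76, the start of Krt18, the region of Krt19 across its high-coordinate end, a flank region of Krt17, and 1 region each at Krt81, Krt27 and Krt7. That of Krt7 reaches the start of the gene in ASC replicate 2 alone. Krt17 is a keratin that wounded epidermis switches on, and Krt7 and Krt18 belong to simple epithelia. The region at Krt17, chr11:100253731-100254898, was held by both ASC libraries, by control siRNA replicate 2 and by LncMyod siRNA replicate 1, with −log10 q from 1.21 to 2.76. The 3 regions of QSC were 1 at Krt80 (463 and 447 bp, −log10 q 12.0 and 10.5), the start of Krt76 (752 and 682 bp) and the region inside Krt73 described with the cultures. The regions at Krt27, at Krt81 and at Krt7 were held by both ASC libraries and by no other library, which was true of 3 of 97 keratin regions (3.09%) and of 0.856% of all regions. All 3 were faint, with −log10 q from 1.28 to 3.17.

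Control siRNA cultures were then compared with ASC, a step that combines leaving the animal, culture, differentiation and transfection, which cannot be told apart. One keratin of 35 rose (1 of 35, beside 2.37% of all genes) and none fell, beside 1.78%. Of the 35, 7 had an unadjusted p below 0.05, beside 21.8% of all genes. The median change was -0.12 over the keratins and -0.09 over all genes tested. Over all genes 603 rose and 452 fell, against 444 and 188 without scaling and 547 and 1185 when scaled by number of peaks, where the all-gene median was 0.01 and -0.22.

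The gene that rose was Krt73, a type II keratin of the inner root sheath of hair. It had 358 and 218 bp in QSC, 0 and 0 bp in ASC, 1519 and 1473 bp in control siRNA, and 1220 and 521 bp in LncMyod siRNA. Coverage was therefore present before injury, not called 2.5 days after it, and widest in control cultures. The log2 change from ASC to control siRNA was 2.00 (SE 0.25, adjusted p = 0.0173). All of it lay in 1 region inside the gene, chr15:101796279-101797841, with −log10 q of 4.43 and 2.82 in QSC, 10.3 and 10.7 in control siRNA and 13.2 and 7.01 in LncMyod siRNA. The change kept its size with any 1 library left out, from 1.98 to 2.01. Its adjusted p did not stay below 0.05 in 6 of those 8 fits: 0.0504 and 0.0505 without QSC replicate 1 or 2, 0.0507 and 0.0728 without ASC replicate 1 or 2, and 0.110 without either control siRNA library.

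**Figure D4:**
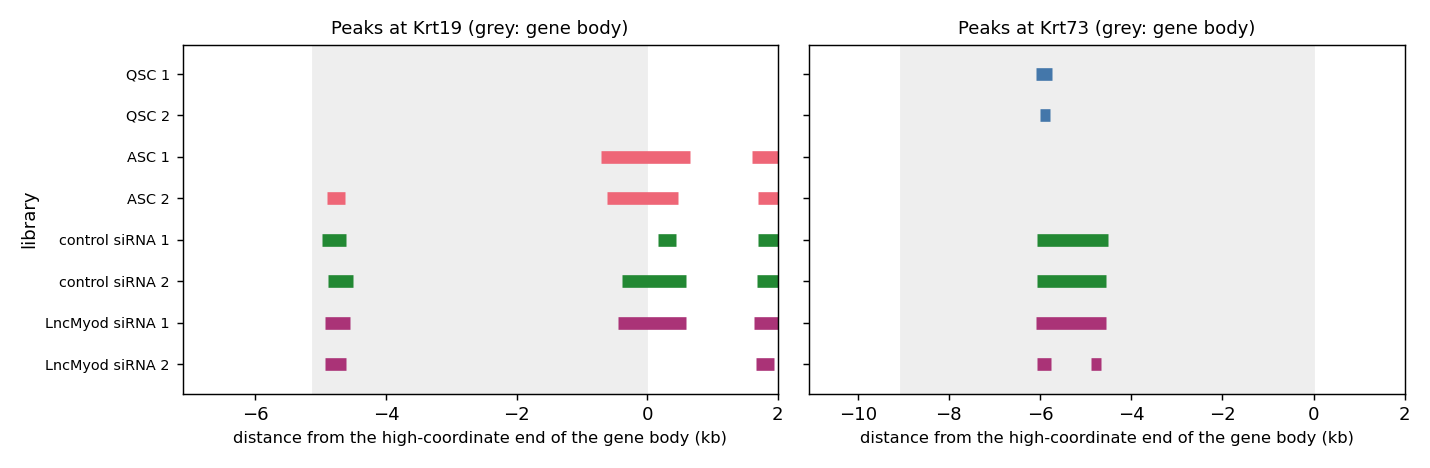
Peaks of each library (horizontal bars) at Krt19 and Krt73 by distance in kb from the high-coordinate end of the gene body, which is shaded. At Krt19 all 6 libraries other than QSC have a peak near 2 kb beyond that end; at Krt73 one region inside the gene is called in every library apart from ASC.

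Both control siRNA libraries and neither ASC library held 5 keratin regions (5.15%, beside 11.7% of all regions), and the reverse held for 3 (3.09%, beside 2.64%). The 5 were the region of Krt73, the region at the start of Krt76, where the control siRNA peaks lay beside the start, and regions inside Krt71, Krt28 and Krt42. Krt71 and Krt28 are, like Krt73, keratins of the inner root sheath. The region of Krt71, chr15:101737728-101738088, had 297 and 317 bp in control siRNA and 338 bp in LncMyod siRNA replicate 1. The 3 lost regions were those at Krt81, Krt27 and Krt7 that ASC alone held.

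With the siRNA against LncMyod, no keratin gene passed the threshold; accessibility does not check the knockdown itself. With limma 0 of 35 rose, beside 0.0276% of all genes, and 0 fell, beside 0.00394%; 4 keratins of 35 had an unadjusted p below 0.05, beside 9.32% of all genes, a share near that background. Krt87, a hair keratin, had 0 and 0 bp in control siRNA and 1399 and 858 bp in LncMyod siRNA (log2 change 1.68, SE 0.23, adjusted p = 0.0797). The 2 LncMyod siRNA libraries shared 1 region there, with unscaled lengths of 282 and 464 bp. The rest came from regions that only 1 of these 2 libraries held, and all these peaks were faint (−log10 q 1.33 to 2.45). Krt4, of the lining of mouth and oesophagus, had 0 bp in the other 6 libraries against 259 and 853 bp with LncMyod siRNA; it passed the filter on low values through the LncMyod siRNA libraries alone, so its test was bound to show a difference and is not given. Krt72, of the inner root sheath, had 0 and 203 bp against 483 and 862 bp (0.97, SE 0.23, adjusted p = 0.237). The 2 LncMyod siRNA libraries held different regions there. Krt72 passed the filter on low values by means of these libraries, so the filter favoured a rise and the test lends it no support. Krt77, given above, was the fourth. The 2 cultures did not overlap at Krt87 or Krt77, nor at Krt72 and Krt4, where the filter limits the reading. Without LncMyod siRNA replicate 1, 2 keratins rose, beside 1.66% of all genes, and without replicate 2, 1 did, beside 0.795%; in these fits 1 knockdown library is assumed to vary like the other groups. Both LncMyod siRNA libraries and neither control library held 2 keratin regions (2.06%, beside 2.2% of all regions), at Krt87 and Krt84, and the reverse was true of 1 (1.03%, beside 1.42%), that of Krt77.

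All 4 cultured libraries were also set against the 4 libraries of isolated cells (QSC and ASC), which share samples with every comparison above. Krt73, Krt31 and Krt72 rose (3 of 35, beside 8.95% of all genes) and no keratin fell, beside 9.1%. Over all genes the split depends on the scaling: 2274 rose and 2313 fell as scaled here, 2560 and 955 without scaling, and 2084 and 7661 when scaled by number of peaks, where 4 keratins rose and 1 fell. The all-gene median was -0.08, 0.05 and -0.20 in that order, and that of the keratins 0.24, 0.35 and 0.13. Without the filter on low values, as scaled here, it was 0.12 over the 53 keratins and 0 over all genes. With lists of equal length it was -0.0034 over 25 keratins and 0.0023 over all genes. As scaled here, 10 keratins of 35 had an unadjusted p below 0.05, beside 37% of all genes.

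Krt73 was higher in culture by 1.38 (SE 0.18, adjusted p = 0.00593), with 521 bp the lowest cultured and 358 bp the highest isolated value. It passed the threshold in every alternative run for this comparison. Krt31, a type I keratin of the hair cortex, had 0 and 0 bp in QSC, 415 and 0 bp in ASC, 664 and 499.5 bp in control siRNA, and 604 and 880 bp in LncMyod siRNA. Isolated and cultured libraries did not overlap, and the log2 change was 0.99 (SE 0.21, adjusted p = 0.0239). Among isolated libraries only ASC replicate 1 was covered, so Krt31 passed the filter on low values by means of cultured libraries. The filter thus favoured a rise in culture, and neither the lack of overlap nor the call lends support to a change of Krt31. Leaving out either QSC library or any cultured library raised its adjusted p to between 0.0537 and 0.0927. Krt72 had 0 bp in all 4 isolated libraries and in control siRNA replicate 1, and 203, 483 and 862 bp in the other 3. Its log2 change was 0.73 (SE 0.17, adjusted p = 0.0307), yet the 3 covered libraries held 3 different regions, each called in 1 library. Krt72 passed the filter on low values through cultured libraries alone, so a difference was bound to be seen and its call carries no support. Without QSC replicate 1 or 2 its adjusted p was 0.0866 and 0.0919, without ASC replicate 1 or 2 it was 0.0634 and 0.0680, and without control siRNA replicate 2 it was 0.0807. No keratin region was held by all 4 cultured and none of the isolated libraries (0 of 97, beside 4.78% of all regions) or by the reverse (0 of 97, beside 0.551%).

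The keratins of simple epithelia are the ones most often seen outside stratified epithelia. Krt8 and Krt18 form the first pair of the embryo, and Krt7, Krt19, Krt20 and Krt23 belong to ducts, gut and other simple epithelia. Krt8 had 1020 and 2322 bp in QSC, 2948 and 1714 bp in ASC, 1389 and 1294 bp in control siRNA, and 1137 and 1269.7 bp in LncMyod siRNA. QSC and ASC overlapped at Krt8, and part of its length lies in a region shared with Krt78. Its regions chr15:102002856-102003526 and chr15:102004878-102005782 were called in all 8 libraries. Krt18 had 441 and 0 bp in QSC, 446 and 419 bp in ASC, 0 and 196 bp in control siRNA, and 419 and 0 bp in LncMyod siRNA. The peak of QSC replicate 1 lay in the upstream flank and those of ASC over the start. Krt7 was covered in all 8 libraries, from 411 to 1422 bp, both extremes in ASC. A region inside Krt7, chr15:101418917-101419778, was held by all libraries other than ASC replicate 2, with −log10 q of 1.86 and 1.89 in QSC and 27.5 and 27.8 in control siRNA. Krt20 had a peak in LncMyod siRNA replicate 2 alone (929 bp), and Krt23 in no library. Apart from Krt19, no simple epithelial keratin passed the threshold in any of the 4 comparisons.

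The keratins of basal and of stressed epidermis were nearly empty. Krt5 and Krt14 are the pair of basal keratinocytes, and Krt15 marks basal cells and hair follicle stem cells. Krt5 had a peak in LncMyod siRNA replicate 2 alone (295 bp), Krt14 in control siRNA replicate 1 and both LncMyod siRNA libraries (195 to 206 bp), and Krt15 in none. No basal keratin had a peak in QSC or ASC. Of the stress-inducible keratins, Krt6a, Krt6b and Krt16 had no peak in any library. Krt17 had 0 and 0 bp in QSC, 450 and 534 bp in ASC, 0 and 155 bp in control siRNA, and 347 and 0 bp in LncMyod siRNA. QSC and ASC did not overlap at Krt17, but the log2 change of 0.99 (SE 0.28) missed the threshold (adjusted p = 0.0711). Outside ASC, only LncMyod siRNA replicate 1 was covered far enough to count for the filter on low values. Krt17 therefore passed that filter by means of ASC libraries. The filter thus favoured a rise from QSC to ASC, and neither the lack of overlap nor the test lends support to a change of Krt17. Krt42 had no peak in QSC or ASC and 277, 436, 380.2 and 2093 bp in the 4 cultured libraries, and it passed the filter on low values through them alone, so its test is not given.

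The 9 keratins covered in all 8 libraries were Krt222, Krt10, Krt80, Krt7, Krt88, Krt90, Krt76, Krt78 and Krt8. Krt78 had the longest coverage, from 1974 to 4321 bp, over a gene body that is also the longest of the 53. Of its regions, 3 were called in all 8 libraries, the strongest being chr15:101977101-101977927 with −log10 q from 36.4 to 70.5. All 3 lie in the annotated gene body but upstream of the start listed for Krt78. The strongest is 22814 bp from that start and chr15:101973682-101974214 is 19395 bp from it, while chr15:101983557-101984692 is nearest the start of Krt8 (19650 bp). These peaks cannot be given to Krt78 with certainty. Krt10, the type I keratin of the upper epidermis, had 765 to 1291 bp in 1 region, chr11:99385830-99386959, with −log10 q from 14.3 to 31.1. The region of Krt222 shared by all libraries lies in the body of its neighbour Smarce1, a chromatin remodeller subunit, and the regions of Krt80 called in all 8 libraries and in both QSC libraries lie also in the noncoding gene Gm35853, so those peaks cannot be given to the keratin alone. Krt80 ranged from 1941 to 3440 bp, Krt88 from 585 to 1290.2 bp, Krt90 from 301 to 1902 bp, Krt222 from 295 to 942 bp, and Krt76 from 268 to 902 bp. None of the 9 passed the threshold in any of the 4 comparisons.

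The remaining keratins are mostly those of hair and of the suprabasal layers. Of 23 keratins of hair and inner root sheath, 4 and 1 had a peak in QSC, 9 and 7 in ASC, 8 and 9 in control siRNA, and 16 and 11 in LncMyod siRNA; 4 had none in any library. Their summed scaled length was 1.43 and 0.218 kb in QSC, against 5.01 to 9.36 kb in the other 6 libraries. Within this group Krt86 was covered in all libraries other than QSC replicate 2, with 821 to 1078 bp outside QSC and 585 bp in QSC replicate 1. Of 13 suprabasal and mucosal keratins, 5 and 6 had a peak in QSC and 7 to 10 in the other libraries.

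Coverage was last taken over the 1 Mb windows that hold the clusters, each with its neighbours. In the window chr15:101000001-102000000, which holds 25 keratin genes among 35 coding genes, scaled covered length was 38.7 and 40.0 kb in QSC, 48.8 and 46.2 kb in ASC, 48.8 and 51.0 kb in control siRNA, and 54.0 and 57.8 kb in LncMyod siRNA. The keratin loci made up 8.07 and 8.48 kb of it in QSC, 17.3 and 15.2 kb in ASC, 13.0 and 15.5 kb in control siRNA, and 17.9 and 17.2 kb in LncMyod siRNA. The rest of that window had 30.6 and 31.6 kb in QSC and 31.5 and 31.1 kb in ASC, and 35.5 to 40.7 kb in culture. From QSC to ASC the gain thus lay in the keratin loci, and from ASC to control siRNA keratin length did not grow while the rest did. Among its other genes Scn8a, a sodium channel, the noncoding Gm35853 and Acvr1b, an activin receptor, had the longest coverage.

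The window rose from QSC to ASC by 0.26 on the log2 scale (SE 0.06, adjusted p = 0.00633) and from isolated to cultured cells by 0.28 (SE 0.05, adjusted p = 0.000497). Over all 2256 windows, 22.2% rose and 24.6% fell from QSC to ASC, and 23.2% rose and 22.6% fell in culture, so a rise in a window is common here. The change in culture was 0.46 without scaling (adjusted p = 0.00497) and 0.11 when scaled by number of peaks (adjusted p = 0.0461). In chr15:102000001-103000000, with Krt8 in part and Krt18, the rise from QSC to ASC of 0.29 (SE 0.05, adjusted p = 0.00135) lay outside the keratins, whose length was 1.46 and 1.24 kb in QSC and 1.86 and 1.73 kb in ASC of totals of 63.8 to 78.9 kb. That window fell by 0.18 on the log2 scale from ASC to control siRNA (adjusted p = 0.0421), when 10.5% of windows rose and 6.69% fell. Its longest covered neighbours were Gm36560, the retinoic acid receptor gene Rarg and the kinase gene Map3k12.

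In chr11:100000001-101000000 no keratin locus had a peak in QSC, and the other libraries had 2.91 to 5.30 kb there. The window rose by 0.18 (SE 0.06, adjusted p = 0.0238) from QSC to ASC and by 0.13 (SE 0.04, adjusted p = 0.0227) in culture. The change in culture rests on the scaling: it was 0.31 without scaling (adjusted p = 0.0507) and turned to -0.034 when scaled by number of peaks (adjusted p = 0.549), where the median of all windows was -0.14. The rest of it had 48.9 and 47.7 kb in QSC and 53.8 and 49.7 kb in ASC, and its longest covered genes were Stat5b and Stat3, signal transducers of cytokine receptors, and Zfp385c. In chr11:99000001-100000000 the keratin loci had 1.62 and 1.54 kb in QSC, 3.12 and 3.21 kb in ASC and 1.83 to 2.88 kb in culture, and the window change of 0.20 from QSC to ASC missed the threshold (adjusted p = 0.130). Its neighbours Smarce1, Igfbp4 and Ccr7 had the longest coverage. With LncMyod knockdown none of the 4 windows passed the threshold in limma, 1 had an unadjusted p below 0.05 (0.0302, for chr15:101000001-102000000), and 0.665% of all windows rose and 0% fell.

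**Figure D5:**
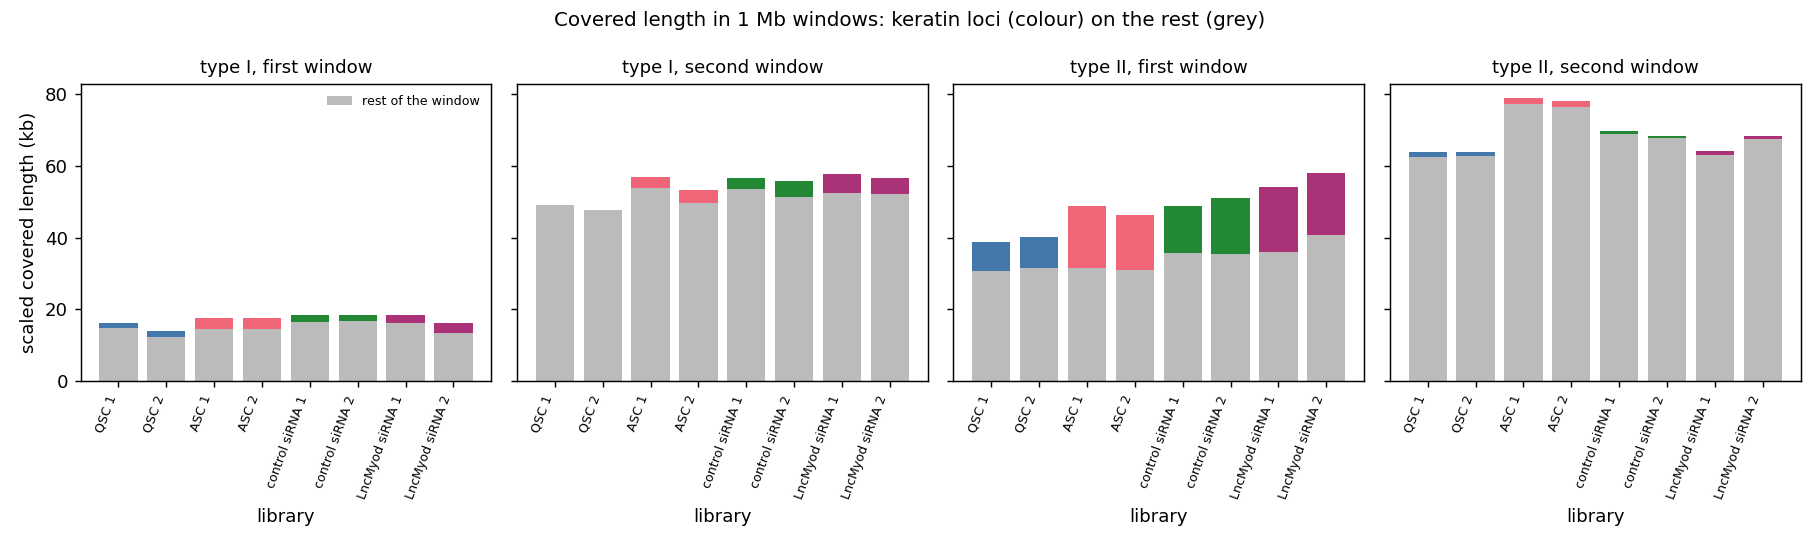
Scaled covered length (kb) in the 4 windows of 1 Mb that hold keratin genes, by library; the coloured part lies in keratin loci and the grey part in the rest of the window. In the first window of the type II cluster the coloured part is 8.07 and 8.48 kb in QSC and 13.0 to 17.9 kb in the other 6 libraries.

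The window calls of ASC against QSC rest on the scaling: without it the adjusted p was 0.690, 0.455 and 0.345 in the order chr11:100000001-101000000, chr15:101000001-102000000 and chr15:102000001-103000000. Without scaling 101 windows rose and 225 fell in that comparison against 500 and 554 with it, 77 rose and 2 fell from ASC to control siRNA (all-window median 0.15 against 0.01) against 238 and 151, and 511 rose and 78 fell in culture (median 0.15) against 523 and 510. With 1 library left out, chr11:100000001-101000000 lost its call without QSC replicate 1, QSC replicate 2 or ASC replicate 1 (adjusted p = 0.0706, 0.119 and 0.108), and chr15:101000001-102000000 without QSC replicate 1 (0.0597). When windows started 500 kb later, chr11:99500001-100500000 rose by 0.57 from QSC to ASC (adjusted p = 0.000423) and chr15:101500001-102500000 rose by 0.46 (adjusted p = 0.00138), while chr11:98500001-99500000, with 0.14, missed the threshold (adjusted p = 0.152). That last window fell from ASC to control siRNA by 0.26 (adjusted p = 0.0351) and in culture by 0.18 (adjusted p = 0.0171).

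Of 16 genes whose products bind or order keratins (desmosome, hemidesmosome and linker proteins), 1 rose from QSC to ASC, beside 6.58% of all genes, the cytoskeletal linker Plec, with 9456 and 9972 bp in QSC and 14148 and 13247 bp in ASC (log2 0.47, SE 0.10, adjusted p = 0.0292). Pkp1, a desmosome plaque protein, was the 1 that rose from ASC to control siRNA, beside 2.37% of all genes. It had 2328 and 2159 bp in ASC against 3614 and 3284 bp (0.52, SE 0.10, adjusted p = 0.0486). In cultured against isolated cells Dst, Pkp1 and Tchp rose (3 of 16, beside 8.95% of all genes) and Pkp4 fell (1 of 16, beside 9.1%). None of the 16 changed with LncMyod knockdown, where 0.0276% of all genes rose and 0.00394% fell. Among the epithelial markers, Cldn4, a tight junction protein, had 840 and 806 bp in ASC and 36.8 to 53.6 bp in the other 6 libraries, and passed the filter on low values through ASC alone, so its test is not given. Of the 27 markers 25 were tested, and none of these fell from QSC to ASC, beside 4.91% of all genes. In cultured against isolated cells 5 of the 25 fell, beside 9.1% of all genes, and 2 rose, beside 8.95%. Those that fell were Col17a1, Elf3, Ovol1, Perp and Cldn4, the last with the same limit from the filter. The median change in culture was -0.21 over the 25, against -0.08 over all genes tested. Whether the coverage of Cldn4 bears on the keratin changes was not tested.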

How the data were processed

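ATAC-seq of satellite cells was read in 8 libraries, as broad peak lists deposited by the authors, 1 per library and without read counts, so depth is unknown and no interval for counting error can be given. The submitters' processing notes list Bowtie2 2.3.2 and MACS2 2.1.1, with Trimmomatic 0.36, Picard 2.9.2, SAMtools 1.3, bedtools 2.26.0 and bcl2fastq 2.19, on build mm10. Not given in the sources used here are their settings, any shift of reads for the transposase, and the filter behind the lists. The authors' deposited columns give a fold enrichment, a −log10 p and a −log10 q per peak; these and the deposited score rank peaks within a list only.

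Gene positions came from RefSeq on GRCm38.p6, and promoter sequences from RefSeq on the same build. Covered length per gene (body plus 2 kb) was scaled to the mean total covered length, 500 bp were added (2000 bp for 1 Mb windows), and log2 values were fitted with limma 3.58.1 in R 4.3.3 with 1 mean per group and a trended prior, over genes with at least 200 bp in at least 2 libraries, with Benjamini-Hochberg adjustment over all genes or windows and a threshold of 0.05. The fit was tested only on simulated normal values, with a spread below that of these libraries and equal for every gene. That test does not show how the fit behaves at genes with no peak in some libraries, as most keratins are. Regions are peaks of all libraries merged where they overlap or abut; a group holds a region when both replicates do. The keratin genes and lists were chosen with earlier results of these data known. Named genes are keratins past the threshold, those of simple epithelia, of basal layers and of stressed epidermis, those with peaks in all 8 libraries, and others, such as Krt87, Krt4, Krt86 and Krt9, chosen after their values were seen. Printed promoters are those of genes past the threshold, plus Krt76 and Krt18; Krt19 is not in the table used. Same-numbered replicates did not deviate together (correlations from 0.00257 to 0.110), so numbers were not taken to pair libraries. The values of 1 epithelial marker are not reported here. Alternatives are in the closing section.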

Additional observations from a re-analysis of the deposited data

How the results depend on the processing

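The numbers of keratins past the threshold are small, and they moved. For ASC against QSC (2) the number was 1 without scaling, without the filter on low values and with the replicate block, 6 with lists of equal length, 13 with 10 kb flanks, and 0 to 3 with 1 library left out. Of 25 keratins tested with lists of equal length 6 rose, beside 8.49% of all genes, and of 48 with 10 kb flanks 13 did, beside 7.56%. For control siRNA against ASC (1) it was 3 with a −log10 q of at least 5, 6 with equal lengths, of which 3 fell, 2 with only the libraries compared, and 0 to 2 with 1 left out. For LncMyod siRNA against control siRNA (0) it was 0 to 2 with 1 left out. For cultured against isolated (3) it was 5 by number of peaks and with a −log10 q of at least 5, 6 with a pseudocount of 100 bp, 14 with 10 kb flanks, 9 with equal lengths, of which 3 fell, 1 without the filter, and 1 to 5 with 1 left out. In that comparison 13 of 48 rose with 10 kb flanks, beside 10.3% of all genes, and 6 of 25 with equal lengths, beside 12.2%. With equal lengths 3 of 25 fell in culture, beside 11.2%. With a −log10 q of at least 5, 5 of 13 rose in culture, beside 8.76%. From ASC to control siRNA, 3 of 13 rose with that minimum, beside 4.55%. With equal lengths 3 of 25 rose and 3 fell from ASC to control siRNA, beside 5.25% and 5.7%. The replicate block left 1, 1, 0 and 3 in the 4 comparisons. Reversed directions were 0.12 for Krt17 (control siRNA against ASC, 10 kb flanks) and -0.058 for Krt28 (cultured against isolated, equal lengths), neither past the threshold. Of keratin windows past the threshold, none was left without scaling for ASC against QSC and control siRNA against ASC (0 and 0) and 1 for culture; with 1 library left out the numbers were 1 to 3, 0 to 1, 0 to 0 and 1 to 2. The window from 100000001 on chromosome 11 had 0.12 without scaling, 0.17 by number of peaks (adjusted p = 0.0520) and 0.14 to 0.23 with 1 left out for ASC against QSC, and 0.31, -0.034 and 0.11 to 0.15 in culture. On chromosome 15 the window from 101000001 had 0.19 without scaling and 0.22 to 0.30 with 1 left out for ASC against QSC, and 0.46 without scaling, 0.11 by number of peaks and 0.25 to 0.30 with 1 left out in culture. The window from 102000001 had 0.22 and 0.28 to 0.30 for ASC against QSC, and -0.018 and -0.19 to -0.17 for control siRNA against ASC. Regions held by 1 side alone numbered 3 (ASC) and 1 (QSC) of 28 with a −log10 q of at least 5, beside 5201 and 8167 of all 76984 regions. They numbered 10 to 20 and 3 to 5 of 97 with 1 left out, beside 9613 to 17931 and 12960 to 18433 of all 141301. For control siRNA against ASC they numbered 3 gained and 6 lost of 57 with equal lengths, beside 10131 and 7563 of all 104034. With a −log10 q of at least 5, 4 of 28 were gained and 1 lost, beside 16015 and 1848 of all 76984. They numbered 7 to 12 and 3 to 10 of 97 with 1 left out, beside 18045 to 24847 and 5088 to 10690 of all 141301. For LncMyod siRNA they numbered 0 and 0 of 28 with a −log10 q of at least 5, beside 205 and 2178 of all 76984. With equal lengths 1 of 57 was gained and 1 lost, beside 1182 and 1524 of all 104034. They numbered 3 to 18 and 2 to 7 of 97 with 1 left out, beside 4654 to 15692 and 2587 to 11970 of all 141301, so the rise in number is not one of keratins alone. For culture they numbered 4 gained of 28 with a −log10 q of at least 5, beside 5633 of all 76984. With equal lengths 1 of 57 was gained, beside 4818 of all 104034. With 1 left out 0 to 3 of 97 were, beside 6989 to 10927 of all 141301. Keratin peaks per library with a −log10 q of at least 5 were 10, 9, 17, 13, 23, 18, 21 and 15 from QSC to LncMyod siRNA, and with equal lengths 14 in QSC replicate 1, 24 and 22 in control siRNA, and 23 and 30 in LncMyod siRNA. The cause of these shifts was not tested, and how far read depth sets them is unknown.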

Other observations

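Keratin-associated protein genes, which code for the matrix proteins around hair keratin filaments, are interspersed with the type I cluster or lie on other chromosomes, and 56 were found by symbol. They were covered even more sparsely than the keratins: 1 and 1 of 56 had a peak in QSC, 7 and 4 in ASC, 7 and 5 in control siRNA, and 8 and 4 in LncMyod siRNA. Of the 7 tested, 1 rose from QSC to ASC, beside 6.58% of all genes: Krtap5-4 went from QSC (0 and 0 bp of scaled covered length) to ASC (416 and 254 bp; log2 0.73, SE 0.16, adjusted p = 0.0335). Krtap1-4 and Krtap1-5 each had 0 bp in QSC and ASC, 1115 and 1048 bp in control siRNA, and 202 and 0 bp in LncMyod siRNA; both passed the filter on low values through cultured libraries alone, so their test is not given. The values of Krtap1-4 and Krtap1-5 are equal in every library, and they count as 1 observation.

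Of 15 genes for other intermediate filament proteins, 5 rose from QSC to ASC, beside 6.58% of all genes, and none fell, beside 4.91%. The 5 were Des, Nefl, Nefm, Bfsp1 and Bfsp2. Nefl, a neurofilament gene, had 0 and 0 bp in QSC, 1203 and 1405 bp in ASC, and 724 to 1073 bp in the 4 cultured libraries (log2 1.85, SE 0.13, adjusted p = 0.00214). Nefm, beside it in function, had 611 and 629 bp in QSC and 2283 and 2773 bp in ASC (1.43, SE 0.14, adjusted p = 0.00409). Bfsp2, of the lens, had 1319.9 and 877 bp in QSC and 4277 and 3843 bp in ASC (1.52, SE 0.27, adjusted p = 0.0189). Des, the desmin gene of muscle, had 2083 and 2094 bp in QSC and 3155 and 2902 bp in ASC (0.45, SE 0.11, adjusted p = 0.0465). None of the 15 changed from ASC to control siRNA, where 2.37% of all genes rose and 1.78% fell. None changed with LncMyod knockdown either, where 0.0276% of all genes rose and 0.00394% fell. Nefl and Nefm were the 2 of 15 that rose in cultured against isolated cells, beside 8.95% of all genes.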
